A study of Mus musculus with 4 samples.

Results

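The gene models Gm10801, Gm10800, Gm21738, Gm10719, Gm10718, Gm10717, Gm10722, Gm10721 and Gm11168 were followed through 4 single-nucleus RNA libraries of mouse back skin. These 9 were among the 32285 genes counted in each library and were picked by name from an earlier look at these counts, in which they stood out in wounds. The wounded libraries came from full-thickness excisional wounds collected 1 day after wounding, and the unwounded libraries from intact back skin. Each group had 2 mice and each mouse gave 1 library. All 4 mice were 8-week-old wild-type C57BL/6 animals, and no allele or drug distinguished the groups. Because the models were chosen for their level in wounds, their wounded and unwounded values are described here without a test.

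Satellite DNA is a short sequence repeated head to tail over long stretches, and in the mouse the major satellite forms the pericentromeric heterochromatin that flanks the centromere of most chromosomes. It is normally packed by histone H3 lysine 9 methylation, HP1 proteins and DNA methylation, and RNA copied from it has been described in stress, development and tumours. Reads from such repeats can land on small annotated gene models whose sequence is itself a copy of the repeat.

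All 9 models are annotated as protein-coding in GENCODE vM21 on the GRCm38 build, and the annotation gives no UTR to any of their 22 transcripts. Gm10801 (ENSMUSG00000075015) lies at chr2:98662237-98664083 on the plus strand and Gm10800 (ENSMUSG00000075014) at chr2:98666547-98667301 on the minus strand. Gm21738 (ENSMUSG00000095280) lies at chr14:19415857-19418930 on the minus strand. The other 6 lie on the plus strand near one end of chromosome 9: Gm10722 (ENSMUSG00000091028) at chr9:3000922-3002330, Gm11168 (ENSMUSG00000096385) at chr9:3003346-3006948, Gm10721 (ENSMUSG00000096519) at chr9:3013140-3014344, Gm10719 (ENSMUSG00000095547) at chr9:3017408-3021593, Gm10718 (ENSMUSG00000095186) at chr9:3023547-3025218 and Gm10717 (ENSMUSG00000095891) at chr9:3025417-3033289. Their transcripts are 504 to 684 bases long, and 28 of their 78 annotated introns are shorter than 10 bases, the shortest being 1 base.

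Stretches of 234 bases from 1 exon each show the likeness that links the models. Gm21738 is given from its exon 3 at chr14:19417133-19417366 (minus strand). The other 4 stretches are Gm10801 exon 1 at chr2:98662237-98662470 (plus strand), Gm10800 exon 4 at chr2:98666800-98667033 (minus strand), Gm10719 exon 3 at chr9:3020836-3021069 (plus strand) and Gm10718 exon 2 at chr9:3023711-3023944 (plus strand). All are GRCm38 transcript sequence, 5′ to 3′, and capitals mark bases that differ from the Gm21738 stretch when that stretch is read as a closed loop from the best-matching start.
Gm21738: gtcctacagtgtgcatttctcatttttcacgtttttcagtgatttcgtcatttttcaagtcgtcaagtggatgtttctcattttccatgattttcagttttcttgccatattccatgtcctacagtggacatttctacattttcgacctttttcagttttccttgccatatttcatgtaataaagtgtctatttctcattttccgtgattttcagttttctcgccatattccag
Gm10801: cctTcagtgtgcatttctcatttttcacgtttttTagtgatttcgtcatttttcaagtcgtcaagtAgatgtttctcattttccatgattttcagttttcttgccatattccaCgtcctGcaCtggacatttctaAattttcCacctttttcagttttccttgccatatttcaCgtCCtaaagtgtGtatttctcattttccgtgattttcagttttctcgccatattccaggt
Gm10800: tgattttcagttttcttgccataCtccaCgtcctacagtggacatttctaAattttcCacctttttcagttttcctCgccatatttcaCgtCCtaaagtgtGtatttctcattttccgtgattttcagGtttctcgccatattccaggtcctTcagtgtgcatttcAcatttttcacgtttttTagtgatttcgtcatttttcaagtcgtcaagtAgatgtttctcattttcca
Gm10719: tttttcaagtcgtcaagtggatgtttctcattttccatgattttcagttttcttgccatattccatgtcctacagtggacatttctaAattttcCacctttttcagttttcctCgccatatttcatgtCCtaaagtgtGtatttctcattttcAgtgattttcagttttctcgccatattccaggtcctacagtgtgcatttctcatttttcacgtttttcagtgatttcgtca
Gm10718: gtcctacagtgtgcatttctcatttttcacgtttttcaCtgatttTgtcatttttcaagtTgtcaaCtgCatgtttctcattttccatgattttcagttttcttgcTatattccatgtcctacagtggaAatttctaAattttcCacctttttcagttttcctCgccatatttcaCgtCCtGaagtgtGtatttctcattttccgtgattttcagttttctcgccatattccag

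The stretches of Gm10801, Gm10800, Gm10719 and Gm10718 matched the Gm21738 stretch at 94.9%, 94.0%, 97.0% and 93.6% of bases without gaps. The remaining 4 models matched it at 94.4% to 96.2%. The longer exons also repeated within themselves. In Gm10719, Gm10722 and Gm11168, an exon of 389, 483 and 483 bases matched itself after a shift of 234 bases at 96.8%, 95.2% and 92.4% of positions, against a median of 30.2% to 30.8% over other shifts. The first exon of Gm10717, 552 bases long, matched itself at 82.7% after 234 bases and best, at 89.4%, after 467 bases. A shift of 58 bases gave 60.3% to 61.6% in the 4 exons, about double the median over other shifts. The period was measured in these 4 exons only, and the other 5 models, among them the largest, Gm10801 and Gm10800, were linked to it by their match to the Gm21738 stretch. No satellite consensus was compared with these sequences, so the name satellite repeat-like stands for this likeness.

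One stretch of 42 bases occurred in all 9 models and is shown because it is among the longest sequences they have in common.
shared stretch: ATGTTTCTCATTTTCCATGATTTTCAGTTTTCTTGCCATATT
This stretch, printed all in capitals, was found in 18 of the 141767 annotated transcripts (0.0127%), which belong to 11 genes, 2 of them outside the 9 models. The models were rich in T on the transcript strand, from 45.8% in Gm10800 to 47.5% in Gm10717, against a median of 24.3% over all transcripts. Their GC content was 34.3% to 36.0%, against a median of 49.3%. The longest run of A within any of their transcripts was 4 bases, in Gm10717, so the transcript models hold no long A tract.

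The models differed in how much sequence they share. Gm10801 had 17.1% of its 50-base words in another of the 9 models, Gm10800 27.2% and Gm21738 32.0%. Among the chromosome 9 models the share was 34.0% in Gm10717 and 84.3% in Gm10721. For reads that match several places, the rule of assignment is not given in the sources used here. Division of counts among the 9 models is uncertain for that reason, and their sum is the firmer quantity.

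The libraries differed in ways that touch every result below. Wounded replicates 1 and 2 kept 2385 and 4330 barcodes that passed a minimum of 200 genes and a maximum of 5% mitochondrial UMIs (unique molecular identifiers, the counted molecules), with medians of 364 and 315 UMIs per barcode. Unwounded replicates 1 and 2 kept 6963 and 9770 barcodes with medians of 906 and 472 UMIs. Kept UMIs came to 1245444 and 1674719 in the wounded libraries, against 8762743 and 6999384 in the unwounded ones. Malat1, a nuclear long non-coding RNA that marks intact nuclei, took 0.120% and 0.289% of UMIs in wounded libraries, against 9.37% and 8.25% in unwounded ones. No Malat1 UMI was found in 74.1% and 58.1% of wounded barcodes, against 0 of the 6963 and 0 of the 9770 unwounded barcodes, which allows shares of up to 0.0431% and 0.0307%. Of the deposited barcodes, between 10 and 58 were shared by each pair of libraries. The 52 and 67 kept unwounded barcodes whose sequence also occurred in a wounded library held 0 UMIs of the 9 models, which allows up to 38.15 and 54.0 CPM (UMIs per 1000000 UMIs). Fibroblast markers, 6 genes with none at 0, summed to 277 and 373 CPM in wounded libraries, against 9883 and 10445 CPM in unwounded ones. Skeletal muscle, macrophage and adipocyte markers were also lower in wounded libraries, and keratinocyte markers overlapped between groups. Endothelial markers were higher in wounded libraries, at 509 and 511 CPM, against 120 and 143 CPM in unwounded ones. Neutrophil markers were also higher, at 126 and 143 CPM, against 6.05 and 9.86 CPM in unwounded libraries, where some were at 0. No marker list reached 3 UMIs and led in 2284 of 2385 and 4168 of 4330 wounded barcodes, against 561 of 6963 and 1535 of 9770 unwounded barcodes. Wounded barcodes could thus mostly not be given a cell type by these markers, and the part of these library differences in the results below was not tested.

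The 9 models together held 53764 and 61431 UMIs in wounded replicates 1 and 2, against 34 and 160 UMIs in unwounded replicates 1 and 2. This was 4.32% (Wilson 95% interval 4.28 to 4.35) and 3.67% (3.64 to 3.70) of all UMIs in the wounded libraries. In the unwounded libraries it was 3.88 CPM (2.78 to 5.42) and 22.9 CPM (19.6 to 26.7). The intervals cover counting error only. The means were 3.99% ± 0.459 in wounded skin and 13.4 ± 13.4 CPM in unwounded skin (SD, n = 2 each). The groups did not overlap, the lower wounded library lying 1605-fold above the higher unwounded one. The wounded libraries differed little from each other, whereas the unwounded libraries differed several-fold, so the unwounded mean rests mostly on replicate 2. Pooled over libraries, the ratio of wounded to unwounded was 3205 (95% counting interval 2784 to 3709). It was 1726 without unwounded replicate 1 and 10167 without unwounded replicate 2.

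Gm10801 had the most UMIs of any gene in wounded replicate 1 and ranked 2 in wounded replicate 2. It had 27609 and 22523 CPM in wounded libraries, against 1.83 and 12.6 CPM in unwounded libraries. Gm10800, its neighbour on chromosome 2, ranked 3 in both wounded libraries, with 11133 and 10290 CPM, against 1.48 and 7.86 CPM in unwounded libraries. Per kilobase of gene body these neighbours were alike: Gm10801 had 14948 and 12194 CPM per kb in wounded libraries, and Gm10800 had 14746 and 13629 CPM per kb. Neither model has an established function, and their unwounded counts, 104 and 68 UMIs over both libraries, were the only ones above 6 among the 9.

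The other 7 models were several-fold lower or more but showed the same separation. Gm21738, the chromosome 14 model, had 1611 and 1415 CPM in wounded libraries, against 0.228 and 0.571 CPM in unwounded libraries. The largest values on chromosome 9 were those of Gm10719, with 845 and 760 CPM in wounded libraries, against 0.114 and 0.286 CPM in unwounded libraries. Gm10718 had 787 and 719 CPM in wounded libraries, against 0.114 and 0.571 CPM in unwounded libraries. Gm10719 and Gm10718 thus had similar levels in each wounded library. Gm10717 had 387 and 285 CPM in wounded libraries, against 0 UMIs and 0.286 CPM in unwounded libraries. Gm10722 had 295 and 244 CPM in wounded libraries, against 0 UMIs and 0.429 CPM in unwounded libraries. Gm10721 had 261 and 235 CPM in wounded libraries, against 0.114 and 0.143 CPM in unwounded libraries. Gm11168 was lowest, with 240 and 211 CPM in wounded libraries, against 0 UMIs and 0.143 CPM in unwounded libraries. A count of 0 in unwounded replicate 1 allows up to 0.342 CPM.

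All 9 models were higher in both wounded libraries than in either unwounded library. Among all genes tested with edgeR, 47.8% were called higher in wounded libraries. That share counts edgeR calls and not gaps in CPM, and the share of all genes with such a gap was not counted. Since the models were chosen on this contrast, nothing is read from the count. The other 7 models had 1 to 6 unwounded UMIs in all, so their pooled ratios are loose: 3938 for Gm21738 (95% counting interval 1808 to 10736), and 3519 for Gm11168 (629 to 139215). The ratio for Gm10801 was 3742 (3088 to 4581) and for Gm10800 it was 2468 (1947 to 3180), but these counting intervals leave out the spread between unwounded libraries. Without unwounded replicate 1 the ratio was 1964 for Gm10801 and 1355 for Gm10800, and without unwounded replicate 2 it was 13523 and 7178.

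**Figure D1:**
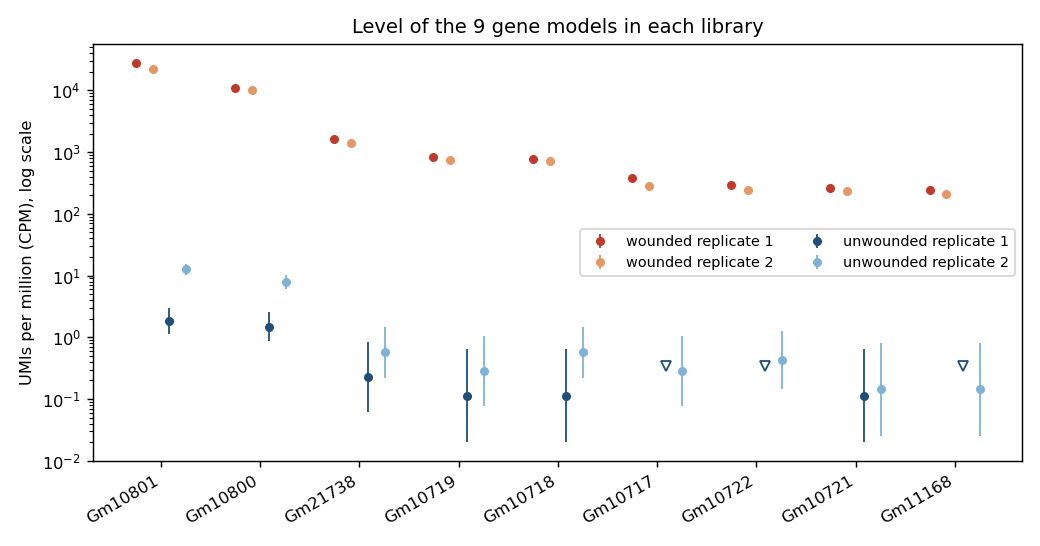
Level of each of the 9 gene models in CPM (log axis) in wounded and unwounded libraries, with Wilson 95% intervals; open triangles stand at 0.342 CPM, the level that a count of 0 allows in unwounded replicate 1. Every wounded point lies above 200 CPM and every unwounded point below 13 CPM.

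The order of the models was the same in both wounded libraries. Gm10801 took 64.0% and 61.4% of the models' UMIs in wounded replicates 1 and 2, and Gm10800 took 25.8% and 28.1%. In unwounded replicates 1 and 2 Gm10801 took 47.1% (95% interval 31.5 to 63.3) and 55.0% (47.3 to 62.5), and Gm10800 took 38.2% (23.9 to 55.0) and 34.4% (27.5 to 42.0). Gm10801 therefore led in all 4 libraries, with wide intervals in the unwounded ones. In wounded libraries the smallest 4 models, Gm10717, Gm10722, Gm10721 and Gm11168, each took under 1% of the models' UMIs.

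**Figure D2:**
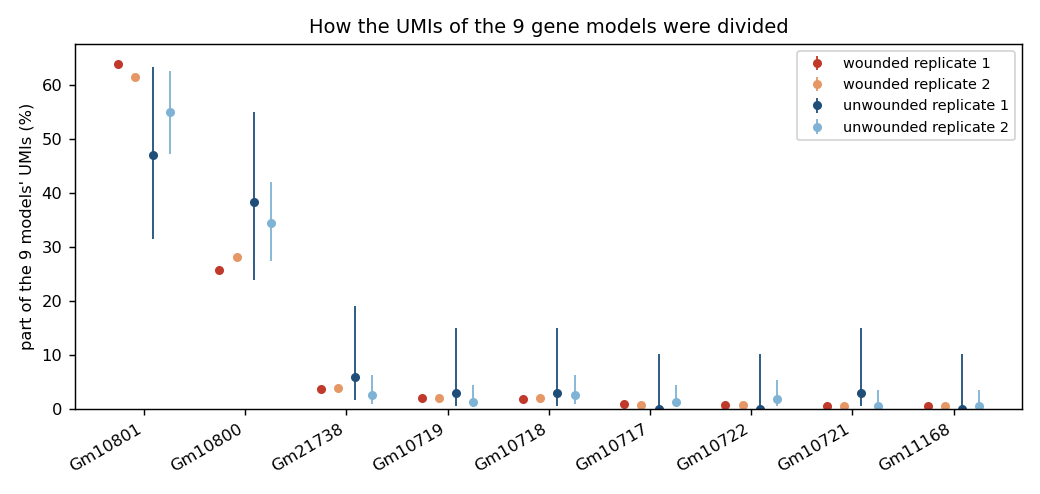
Part of the 9 models' UMIs (percent) taken by each model in wounded and unwounded libraries, with Wilson 95% intervals. Gm10801 holds 64.0% and 61.4% in the wounded libraries and 47.1% and 55.0% in the unwounded ones, where only 34 and 160 UMIs are divided.

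A further 3 genes of the files carry the same sequence and were found from their transcripts alone. Gm10720, Gm17535 and Gm10715, all on chromosome 9 between positions 3015654 and 3038316, shared 96.2%, 95.3% and 82.1% of their 20-base words with the 9 models. Gm10720 had 50.6 and 41.2 CPM in wounded libraries, against 0 UMIs and 0.143 CPM in unwounded libraries. Gm17535 had 48.2 and 40.01 CPM in wounded libraries and 0 UMIs in both unwounded libraries, so it was at least 229-fold higher in wounded libraries when set against a floor of 3 counts over the unwounded group. Gm10715 had 48.2 and 42.4 CPM in wounded libraries, against 0.114 CPM and 0 UMIs in unwounded libraries. Since they share sequence with the models, they are not separate evidence, and no p-value is given for them.

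Nearly every kept wounded barcode held the models. At least 1 UMI of the 9 was found in 97.8% and 98.96% of wounded barcodes, against 0.431% and 1.45% of unwounded barcodes. After each barcode was thinned to 250 UMIs, leaving out 314 and 783 shallower wounded barcodes and 0 unwounded ones, the shares were 96.5% and 98.2%, against 0.151% and 0.792%. No cell type was set aside as one that should lack these RNAs, so a background level was not available for this share. The filters kept 51.5% and 24.0% of deposited wounded barcodes, against 99.97% and 99.3% of unwounded ones. In wounded replicate 1, 82.3% of barcodes with 100 to 199 genes held a UMI of the models. In wounded replicate 2 it was 89.9% at 100 to 199 genes and 77.2% under 100 genes. Over kept barcodes the median share of a barcode's UMIs was 3.69% and 2.92% in wounded libraries. The 5th to 95th percentiles ran from 0.397% to 8.73% and from 0.567% to 8.08%. The highest single barcode reached 18.5% and 22.6% in wounded libraries, against 0.602% and 0.923% in unwounded libraries. Of the models' UMIs, the 10% of barcodes richest in them held 38.9% and 35.7% in wounded libraries, against 31.1% and 23.5% of all UMIs in the 10% of barcodes with most UMIs. The models were thus spread over the wounded barcodes rather than gathered in a few.

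**Figure D3:**
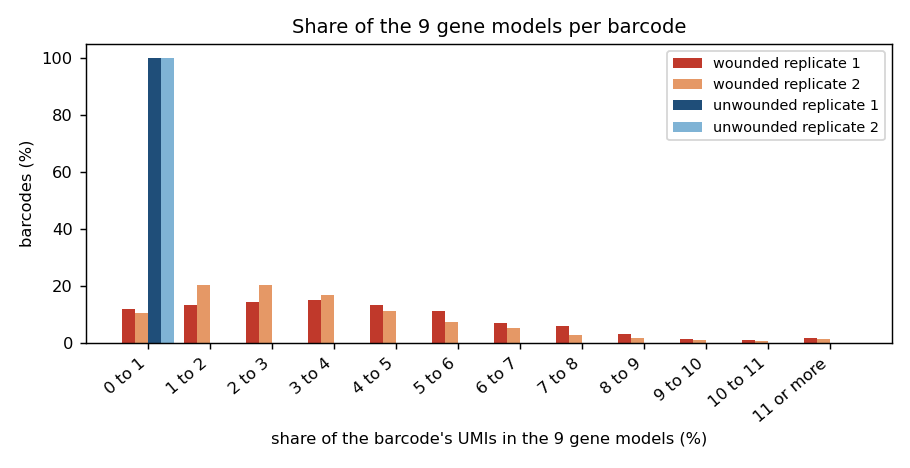
Percent of kept barcodes (vertical axis) by the share of their UMIs in the 9 gene models (horizontal axis, percent) in each library. All unwounded barcodes fall under 1%, whereas the wounded libraries spread over the whole range with medians of 3.69% and 2.92%.

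The share grew with the number of genes in a wounded barcode up to 1000 genes. In wounded replicate 1 it was 2.87% at 100 to 199 genes, 3.56% at 200 to 299, 4.05% at 300 to 499, 5.05% at 500 to 999 and 4.57% at 1000 genes or more. In wounded replicate 2 it was 2.18% under 100 genes, 2.58% at 100 to 199, 3.14% at 200 to 299, 3.79% at 300 to 499, 4.43% at 500 to 999 and 4.22% at 1000 or more. Barcodes under 200 genes were outside the filter and are shown to extend the range. Over kept barcodes Spearman's rho between the share and the gene count was 0.237 (n = 2385) and 0.178 (n = 4330). The points share a library and their depth, and the correlations are weak.

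Unwounded barcodes went the other way. In unwounded replicate 2 the models had 57.0 CPM at 200 to 299 genes, 27.2 at 300 to 499, 8.60 at 500 to 999 and 7.03 at 1000 or more. Counted per barcode the same 4 classes had 20.9, 14.8, 9.43 and 18.0 UMIs per 1000 barcodes, so the number per barcode had no steady trend with depth. Unwounded replicate 1 had 12.4, 2.19 and 1.99 CPM, and 7.19, 2.46 and 5.54 UMIs per 1000 barcodes, in its classes from 300 genes up. These rest on 19, 7 and 8 UMIs.

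**Figure D4:**
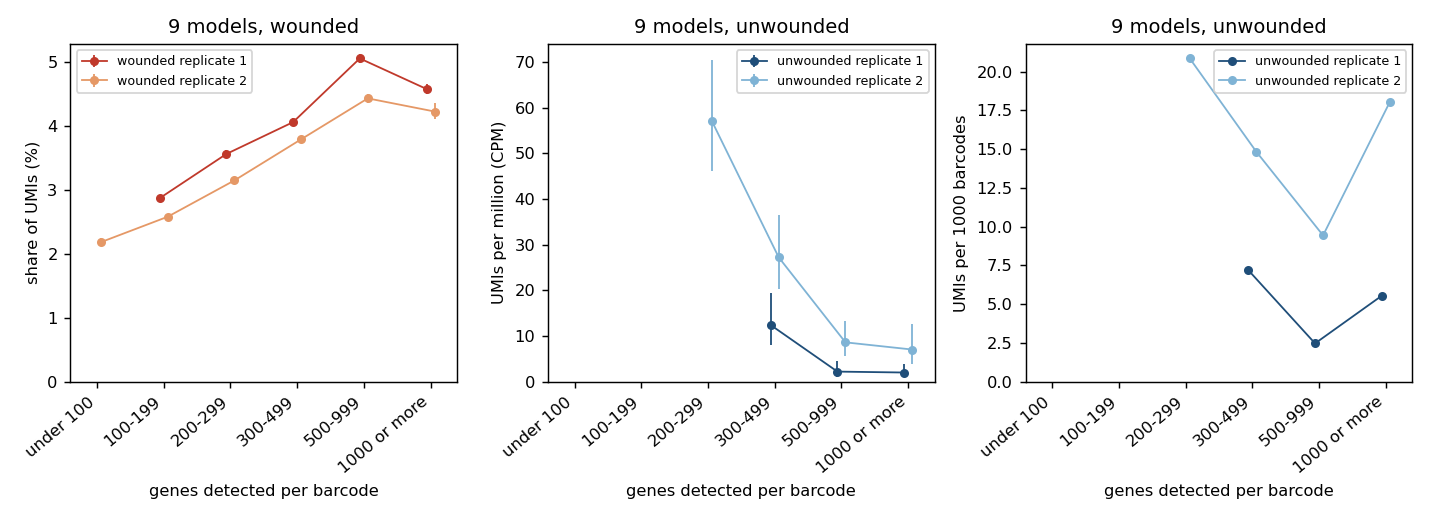
Share of UMIs in the 9 models by genes detected per barcode in wounded libraries (left, percent), and their level in unwounded libraries in CPM (middle) and per 1000 barcodes (right); bars are Wilson 95% intervals, and unwounded classes of fewer than 100 barcodes are not drawn. The wounded share peaks at 500 to 999 genes, at 5.05% and 4.43%, while the unwounded CPM falls with gene count and the UMIs per 1000 barcodes show no steady trend.

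Within the wounded libraries the share was lower where Malat1 was higher. At 0, 1 to 2, 3 to 9 and 10 or more Malat1 UMIs, the models held 4.65%, 3.76%, 2.24% and 0.560% of UMIs in wounded replicate 1. In wounded replicate 2 they held 4.11%, 3.45%, 2.51% and 1.78%. The last class held 22 and 69 barcodes. Spearman's rho between the models' share and the Malat1 share was -0.334 (n = 2385) and -0.297 (n = 4330), a description of barcodes that share a library. Malat1 itself took 3.10% and 2.64% of UMIs in the class with 10 or more.

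The step between barcodes with and without a Malat1 UMI was present at a fixed gene count and was smaller at 1000 genes or more. At 200 to 299 genes the models held 1.96% of UMIs in barcodes with a Malat1 UMI, against 4.17% in barcodes with none, in wounded replicate 1. In wounded replicate 2 the values were 2.49% with and 3.61% without. At 1000 genes or more they were 4.52% with and 4.59% without in replicate 1, and 3.901% with and 4.53% without in replicate 2. Barcodes with a Malat1 UMI did not hold the same Malat1 share throughout. In wounded replicates 1 and 2 it was 0.843% and 0.868% at 200 to 299 genes, against 0.0902% and 0.184% at 1000 or more. The part of this difference in the smaller step was not tested. Wounded barcodes with 10 or more Malat1 UMIs still lay far above the unwounded barcodes, nearly all of which also had 10 or more. Unwounded barcodes of that class held 3.88 and 21.8 CPM of the models. Malat1 took 9.37% and 8.30% of their UMIs, against 3.10% and 2.64% in the wounded class. The classes thus match in Malat1 count and not in share. In unwounded replicate 2 the 162 barcodes with 3 to 9 Malat1 UMIs held 155 CPM of the models, from 9 UMIs.

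The receptor genes of smell and pheromone sensing (1468 genes named Olfr or Vmn), most of which are known for nasal sensory neurons, were counted beside the models. They took 0.706% and 0.654% of UMIs in wounded libraries, against 0.00944% and 0.0132% in unwounded libraries. The models exceeded them 6.12-fold (95% interval 5.98 to 6.26) and 5.61-fold (5.50 to 5.73) in wounded libraries, whereas in unwounded libraries the ratio was 0.0411 (0.0292 to 0.0578) and 0.174 (0.147 to 0.205). Both sets were thus higher in wounded libraries, the models by more. In wounded replicate 1 the receptor share was 0.757%, 0.620%, 0.383% and 0.122% over the 4 Malat1 classes, and in wounded replicate 2 it was 0.701%, 0.639%, 0.515% and 0.408%. The ratio of models to receptors moved less, from 6.14 to 4.58 and from 5.86 to 4.36 between the lowest and highest class. The highest class held 55 and 624 UMIs of the models and fewer of the receptors, so its ratio is loose, above all in replicate 1. Spearman's coefficient between the models' share and the receptor share over barcodes was 0.260 and 0.153, which is weak in counts this sparse.

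**Figure D5:**
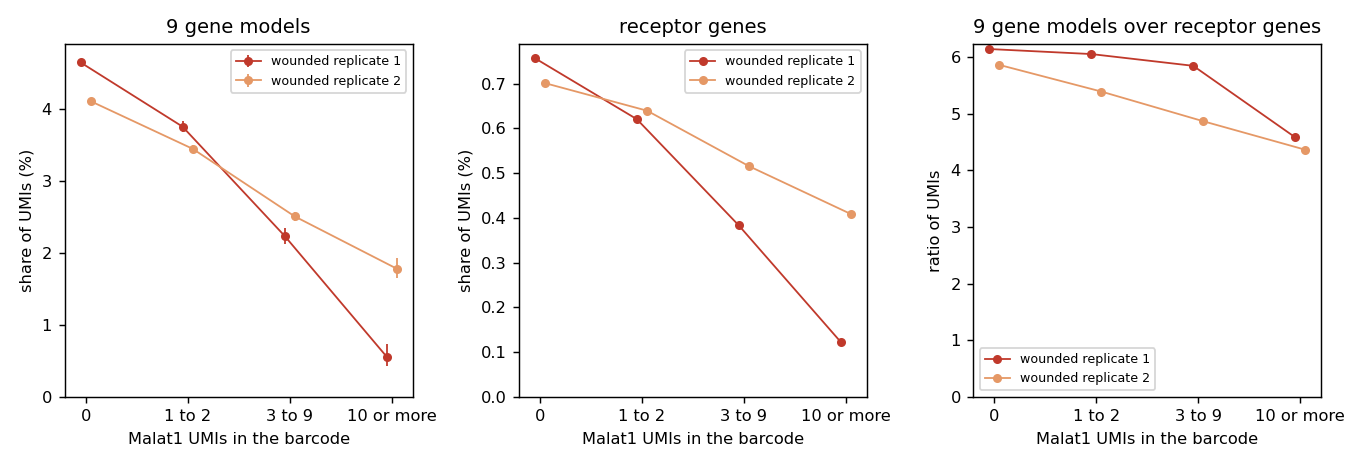
Wounded libraries only: share of UMIs in the 9 gene models (left, percent, with Wilson 95% intervals) and in the receptor genes (middle, percent), and the ratio of these (right), by Malat1 UMIs in the barcode. The models' share runs from 4.65% to 0.560% and from 4.11% to 1.78%, with the receptor share lower as well, so that the ratio stays between 4.36 and 6.14.

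Per kilobase of gene body the receptors had 0.550 and 0.509 CPM in wounded libraries, against 0.00736 and 0.0103 CPM in unwounded libraries. Autosomal protein-coding genes as a whole had 0.779 and 0.772 CPM per kb in wounded libraries, against 0.765 and 0.749 in unwounded libraries. Receptor and coding gene bodies were thus counted at similar density in wounded libraries and far apart in unwounded ones. The 9 models had 1685 and 1432 CPM per kb in wounded libraries, against 0.151 and 0.892 in unwounded libraries. Where a gene model stands for many repeat copies outside it, its length understates the sequence that can feed it, so these densities are not levels per copy.

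Few wounded barcodes could be tied to a cell type by markers. Those led by keratinocyte markers, 59 and 127 barcodes, held 2.12% and 1.83% of UMIs in the models. Those led by endothelial markers, 21 and 20 barcodes, held 5.16% and 4.63%, and those led by no list held 4.38% and 3.72%. The keratinocyte-led barcodes were lower in both libraries and also had more Malat1 (0.279% and 0.489% of UMIs) than barcodes led by no list (0.117% and 0.280%). Endothelial-led barcodes had more genes, a median of 920 and 409, against 313 and 274 in barcodes led by no list. Marker-led barcodes are ranges of a score and not clustered cell types. In unwounded libraries the fibroblast-led barcodes, 5740 and 7628 in number, held 3.42 and 20.3 CPM of the models, and each other led class held at most 9 UMIs. Keratinocyte-led barcodes held 4.93 and 83.8 CPM there, from 1 and 9 UMIs, against 14.9 and 43.1 CPM in barcodes led by no list. Their lower level in wounded libraries was thus not seen in unwounded replicate 2.

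The 8 genes whose level over 20 strata (4 libraries by 5 ranks of genes per barcode) was most like that of the summed models included Lrp1b, Galntl6, Cntnap2, Dpp10, Epha6, Cntn5 and Csmd3. Likeness was the distance between centred log2(CPM + 10) profiles, and it ranged from 10.7 to 11.6 for these genes against a median of 24.5 over 10502 genes. Most of the 8 are long genes best known from neurons, Lrp1b encoding a large lipoprotein receptor-like protein and Cntnap2 a contactin-associated adhesion protein. Their gene bodies are 724 to 2245 kb long. Lrp1b had 1402 and 1308 CPM in wounded libraries, against 6.05 and 14.6 CPM in unwounded libraries. Cntnap2 had 1624 and 1482 CPM in wounded libraries, against 11.4 and 20.002 CPM in unwounded libraries. The models themselves lay at 1.14 (Gm10801, which makes up most of the sum), 3.15 (Gm10800), 8.39 (Gm21738), 10.2 (Gm10719), 10.501 (Gm10718), 12.98 (Gm10717), 13.6 (Gm10722), 13.8 (Gm10721) and 14.05 (Gm11168). The 4 models with the fewest UMIs lay farther from the sum than the 8 genes did. Adding 10 CPM shrinks the step between groups in genes of low level, so the distance follows level as well as pattern. By pooled ratio of wounded to unwounded, Gm11168 stood at 3519 and the sum at 3205. The strata also span the contrast that chose the models, so the likeness is a description only.

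Genes that pack or mark pericentromeric chromatin were mostly lower in wounded libraries. Across all 21618 genes tested with edgeR's quasi-likelihood test, 10329 were called higher (47.8%) and 8016 lower (37.1%), with a median log2 fold change of 0.46. Of 39 genes that package, methylate or hold centromeric chromatin, 4 (10.3%) were higher, 26 (66.7%) were lower and 9 were not called. The list's median log2 fold change was -1.44. Per kilobase of gene body the list had 0.894 and 0.935 CPM in wounded libraries, against 1.81 and 1.86 in unwounded libraries. Autosomal protein-coding genes as a whole had 0.779 and 0.772 in wounded libraries, against 0.765 and 0.749 in unwounded ones. The list thus lay near that density in wounded libraries and above it in unwounded ones. The part of this in the calls was not tested. Atrx, a chromatin remodeller that loads histone H3.3 at repeats, had 72.3 and 86.0 CPM in wounded libraries, against 501 and 498 CPM in unwounded libraries. Its log2 fold change was -3.45 ± 0.16 (SE), with an adjusted p of 3.29e-11 in edgeR. Safb2, a scaffold attachment factor, had 12.0 and 17.3 CPM in wounded libraries, against 145 and 152 CPM in unwounded libraries (log2 fold change -4.11 ± 0.20, edgeR adjusted p = 8.56e-11). Hnrnpu, which binds nuclear RNA and chromatin, had 11.2 and 23.9 CPM in wounded libraries, against 203 and 205 CPM in unwounded libraries (log2 fold change -4.29 ± 0.23, edgeR adjusted p = 1.5e-10). Mbd2, which binds methylated DNA, had 60.2 and 57.3 CPM in wounded libraries, against 216 and 192 CPM in unwounded libraries (log2 fold change -2.60 ± 0.15, edgeR adjusted p = 3.88e-10). These 4 genes were named for the smallest p of the list, so the gap between their groups is not separate evidence. How many of all genes show such a gap was not counted.

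The 4 that rose included Dnmt3b, Sgo2a and Sgo1, which were named after their values were seen. Dnmt3b, a DNA methyltransferase that acts at satellite repeats, had 31.3 and 40.01 CPM in wounded libraries, against 11.3 and 9.001 CPM in unwounded libraries. Sgo2a and Sgo1, protectors of cohesin at the centromere, rested on 28 and 17 wounded UMIs, and DESeq2 called 2 genes of the list higher. The HP1 gene Cbx5 was lower by 1.06 on the fitted log2 scale, with 73.1 and 53.7 CPM in wounded libraries, against 76.9 and 72.7 CPM in unwounded libraries, so its groups overlapped in CPM. TMM factors were 1.339 and 1.32 in wounded libraries, against 0.7818 and 0.7237 in unwounded libraries, and move every fitted change down relative to CPM.

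Genes that sense stray DNA or double-stranded RNA showed no single direction. Of 26 names listed, 24 were in the files and 20 were tested, of which 3 were higher, 10 lower and 7 not called, with a median log2 fold change of -0.46. These were 3 and 10 of 20 genes, against 47.8% higher and 37.1% lower over all genes tested. With RLE scaling 7 were lower. The 10 lower genes included Ddx58, with a mean of 39.1 CPM in wounded libraries and 33.9 CPM in unwounded libraries, and Oas2, with 22.2 CPM in wounded libraries and 21.6 CPM in unwounded libraries, whose fitted direction was opposite to that of their mean CPM. Oas3, an RNA-activated oligoadenylate synthetase, had 33.7 and 33.4 CPM in wounded libraries, against 1.26 and 0.143 CPM in unwounded libraries (log2 fold change 4.64 ± 0.47, edgeR adjusted p = 2.13e-07). Without unwounded replicate 1 its log2 fold change was 6.72, where unwounded replicate 2 held 1 UMI. Without unwounded replicate 2 it was 3.93, where unwounded replicate 1 held 11 UMIs. Dnase1l3, a secreted nuclease that digests chromatin, had 16.1 and 31.6 CPM in wounded libraries, against 1.48 and 1.71 CPM in unwounded libraries (log2 fold change 3.12 ± 0.43, edgeR adjusted p = 5.07e-06). Samhd1, a dNTP hydrolase, had 65.0 and 68.7 CPM in wounded libraries, against 153 and 130 CPM in unwounded libraries (log2 fold change -1.88 ± 0.15, edgeR adjusted p = 1.63e-08). Eif2ak2, the RNA-activated kinase PKR, had 21.7 and 25.1 CPM in wounded libraries, against 49.8 and 39.0 CPM in unwounded libraries (log2 fold change -1.71 ± 0.22, edgeR adjusted p = 2.15e-06). Aim2, a cytosolic DNA sensor, was also higher, with 72.3 and 74.6 CPM in wounded libraries, against 20.5 and 24.0 CPM in unwounded libraries. The DNA sensor Cgas had 6.42 and 10.2 CPM in wounded libraries, against 9.47 and 9.001 CPM in unwounded libraries, so its groups overlapped in CPM. Most genes of these libraries passed the test in one direction or the other, and neither list's counts are read as particular to it.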

How the data were processed

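Single-nucleus RNA was measured in 4 libraries, 2 wounded and 2 unwounded. The deposited matrices hold UMI counts per gene and barcode, which the authors made with Cell Ranger 5.0.1 on GRCm38, per the submitters' processing notes. What release of the annotation, treatment of introns and rule for multiply matching reads they used is not given in the sources used here. Barcodes with 200 genes or more and mitochondrial UMIs of at most 5% were kept. No doublets were removed, and leaving out barcodes above the 99th percentile of UMIs was tried instead. Counts were summed per library and tested with edgeR 4.0.16 (TMM, quasi-likelihood, group as the only term, Benjamini-Hochberg threshold 0.05) in R 4.3.3. Alternatives were DESeq2 1.42.0, RLE scaling, no low-count filter, a replicate block, other barcode sets and each library left out. The edgeR step was also run on simulated counts in which most genes were unchanged. Most genes of these libraries were called, so that simulation does not check the calls made here. Sequences and coordinates came from GENCODE vM21, where 32235 of 32285 genes matched by ID.

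The members and lists were chosen with earlier results of these data known. Genes named were every member, Malat1, the 4 of smallest p in each list and the 8 most like the summed members. Aim2, Cbx5, Cgas, Ddx58, Oas2 and the higher chromatin genes were named after their values were seen. Some genes that this rule names are not reported here. The contrast chose the members, so they carry no test, and 2 against 2 could not go below an exact permutation p of 0.333. Intervals and floors cover counting error only.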

Additional observations from a re-analysis of the deposited data

How the results depend on the processing

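The mean wounded share of the 9 models, 3.99%, was 3.50% with all deposited barcodes, 4.51% with at least 400 genes and 3.21% in barcodes with a Malat1 UMI; the cause was not tested. It ran from 3.67% to 4.32% with 1 wounded library left out. The unwounded mean ran from 0.000388% to 0.00229% with 1 unwounded library left out, and was 0.000575% with at least 400 genes. Genes called higher numbered 6770 in barcodes with a Malat1 UMI, where 18250 genes were tested. Of the chromatin list, 2 genes were higher with DESeq2 and 2 in barcodes with a Malat1 UMI; of the sensor list, 6 were lower with DESeq2 and 6 in barcodes with a Malat1 UMI. The ratio of models to receptors in unwounded libraries, 0.107, ran from 0.0411 to 0.174 with 1 unwounded library left out and was 0.0493 with at least 400 genes. The pooled ratio of wounded to unwounded ran from 1726 to 10167 with 1 unwounded library left out, an alternative chosen after seeing the data. The unwounded share and receptor ratio moved by 1.5 times or more in these settings. With at least 400 genes both moved by less than 1 SD of the unwounded libraries. With 2 libraries, leaving 1 out always moves a mean by less than 1 SD, so the SD gives no check of that setting. The SD of the unwounded share was itself as large as its mean. The 8 list genes named by smallest p kept their direction and call in all 80 alternative values. The members' wounded levels moved by more than the spread between replicates in 18 of 54 alternative values. Those with 1 wounded library left out are among the 54 and could not exceed that spread. With the replicate block 10172 genes were higher and 8024 lower. The replicate differences correlated at 0.0352 between groups over 21618 genes. That value cannot tell whether same-numbered libraries shared any handling, and the main fit did not treat them as pairs. In the unwounded libraries 7 of the models had 6 UMIs or fewer.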
